A study of Mus musculus with 6 samples.

Results

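Lysophosphatidic acid (LPA) acts on cells through a family of receptors, is made outside cells by autotaxin and is broken down there by lipid phosphate phosphatases. The genes described here are the receptors Lpar1, Lpar2, Lpar3, Lpar4 and Lpar6, autotaxin (Enpp2) and the phosphatases Plpp1, Plpp2 and Plpp3 (older names Ppap2a, Ppap2c and Ppap2b). They were taken from a list of 9 genes, with every probe set that the array annotation paired with each. The annotation gave 17 probe sets for 8 of the 9 genes, of 45101 probe sets and 18193 named genes in all. No probe set was paired with Enpp2, so autotaxin was not analysed here.

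The RNA came from NIH3T3 cells, an established line of mouse embryonic fibroblasts, and was hybridised to 6 Affymetrix arrays. Of these, 3 arrays held cells with wild-type LPAR1, 1 each at 0, 60 and 120 minutes, and 3 held cells with mutant LPAR1 at the same times. The labels give no treatment at 0, 60 or 120 minutes, no name for the mutation and no number of clones or cultures. The question the series addresses is how expression differs with and without the LPAR1 mutation. The 3 time points of a genotype serve as its replicates, since each pairing of genotype with time has a single array. The p-values therefore rest on how far a gene's time course differs between genotypes, and on a variance prior from all genes tested. They do not measure the spread between repeats of the same genotype and time, which the series does not have.

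LPA is a small phospholipid of serum and tissue fluid. Lpar1, Lpar2 and Lpar3 belong to the EDG family of G protein-coupled receptors, which they share with the sphingosine 1-phosphate receptors, while Lpar4 and Lpar6 are closer to the P2Y receptors. In fibroblasts LPA is known for driving growth, contraction and actin stress fibres through several classes of G protein. The phosphatases sit in the plasma membrane with the active site facing outwards and remove the phosphate group from LPA, from sphingosine 1-phosphate and from related lipids.

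The 250 bases before the RefSeq gene start (build GRCm38.p6, gene strand, 5′ to 3′) are shown for Plpp3, Plpp2 and Lpar4. Among the members that passed the intensity filter described below, these had the largest differences. The dim Lpar2, fitted only without that filter, is not shown. Capitals mark matches, on either strand, to the TATA box (TATAAA), the CCAAT box (CCAAT), the GC box (GGGCGG), the E-box (CACGTG), the AP-1 motif (TGANTCA), the CRE (TGACGTCA), the TEAD motif (GGAATG), the EGR motif (GCGTGGGCG) or the CArG box.
Plpp3, chr4:105157097-105157346, plus strand: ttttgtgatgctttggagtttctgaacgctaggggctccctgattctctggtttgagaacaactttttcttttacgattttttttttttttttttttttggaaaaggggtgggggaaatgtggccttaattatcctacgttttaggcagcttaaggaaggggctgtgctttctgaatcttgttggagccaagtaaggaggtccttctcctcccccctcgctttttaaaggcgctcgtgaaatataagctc
Plpp2, chr10:79533788-79534037, minus strand: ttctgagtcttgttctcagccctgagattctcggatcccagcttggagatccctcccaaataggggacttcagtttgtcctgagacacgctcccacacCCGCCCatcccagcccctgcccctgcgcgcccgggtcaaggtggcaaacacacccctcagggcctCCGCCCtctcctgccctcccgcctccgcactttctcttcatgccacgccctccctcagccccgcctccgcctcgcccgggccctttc
Lpar4, chrX:106920375-106920624, plus strand: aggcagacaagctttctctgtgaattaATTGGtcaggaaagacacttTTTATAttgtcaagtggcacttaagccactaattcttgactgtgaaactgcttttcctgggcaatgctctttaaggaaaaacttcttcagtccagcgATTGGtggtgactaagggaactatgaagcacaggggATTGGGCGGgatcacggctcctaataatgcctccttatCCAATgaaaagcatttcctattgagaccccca
The Plpp3 window matched none of the searched letters and had a GC content of 42.4%, against 65.6% for Plpp2 and 43.6% for Lpar4 and a median of 52.4% over all 32851 windows of the table. Plpp2 held GGGCGG at 152 and 87 bases before the start, both on the opposite strand, and 32.7% of all windows held this motif. Lpar4 held CCAAT on the opposite strand at 223, 106 and 70 bases and on its own strand at 32 bases before the start, and 33.8% of all windows held at least 1 CCAAT. It also held GGGCGG at 67 bases, overlapping a CCAAT match, and TATAAA on the opposite strand at 203 bases, a motif in 12.4% of all windows. Of the 9 genes 7 had an entry in that table, and the EGR motif GCGTGGGCG, the CRE TGACGTCA and the CArG box, found in 0.536%, 1.55% and 1.47% of all windows, matched in none of their 9 windows. The AP-1 motif TGANTCA (6.75% of all windows) matched at Lpar2 and the TEAD motif GGAATG (12.6%) at Lpar6, while the E-box CACGTG (6.02%) matched in 2 places at Lpar2.

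The deposited intensities had a mean per array between 299 and 308, and the 6 arrays limit the precision of every value. Intensities were used as log2(intensity + 16). Each gene was tested through its brightest probe set. A filter at the 40th percentile of the genes' mean levels, which corresponds to an intensity of 39.2, kept 10916 genes. Of 44 probe sets for olfactory receptors, which fibroblasts are not known to use, none reached this level, and their median intensity was 10.8 and their 95th percentile 34.7. Of 12 fibroblast markers 10 were above the level (Lum and Postn were not), with a summed intensity from 58897 to 60237 in wild-type and from 58319 to 59078 in mutant arrays. Of 6 epithelial markers 4 were above it (Cdh1, Epcam, Krt5 and Krt14), with sums from 1469 to 1658 in wild-type and from 1405 to 1730 in mutant arrays. Of 6 endothelial markers Cdh5 was above it and Pecam1, Kdr, Tek, Vwf and Emcn were not, with sums from 84.5 to 93.8 in wild-type and from 125 to 136 in mutant arrays. These endothelial sums did not overlap between genotypes, and their part in the genotype results was not tested. Tubb3 was the 1 of 6 neural markers above the level, and none of the 4 blood, 4 adipocyte and 6 muscle markers with a probe set was.

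**Figure D1:**
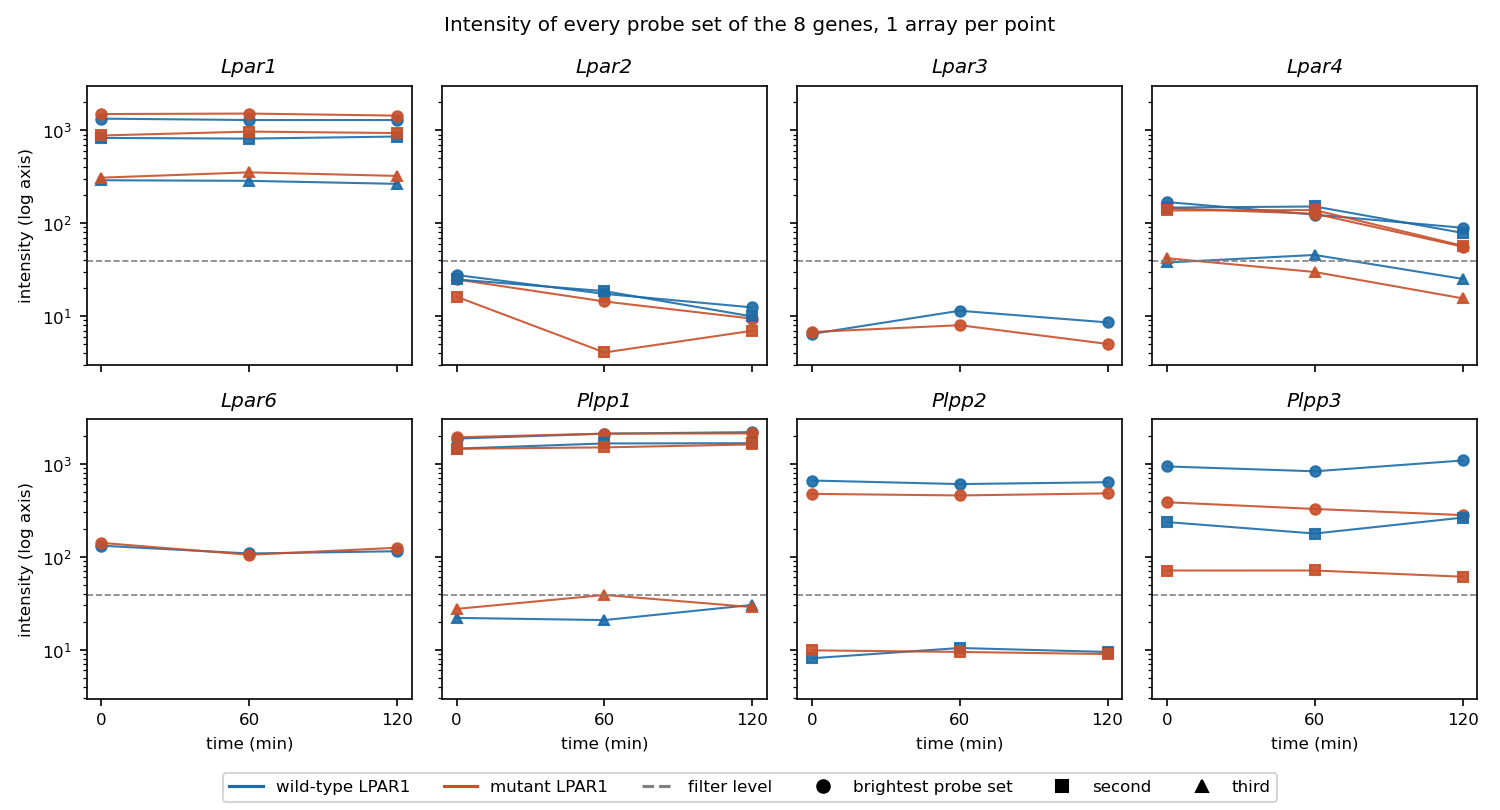
Deposited intensity (log axis) of all 17 probe sets against time in minutes, 1 point per array, blue for wild-type and orange for mutant cells, with the filter level of 39.2 dashed. Plpp3 and Plpp2 are separated by genotype at their brightest sets, Lpar4 is lowest at 120 minutes, and every Lpar2 and Lpar3 set lies below the dashed line.

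Between genotypes, the phosphatases Plpp3 and Plpp2 were lower and the receptor Lpar1 was slightly higher in mutant cells. Plpp3 was 2.79-fold lower on the log2(intensity + 16) scale, Plpp2 1.33-fold lower and Lpar1 1.135-fold higher. Lpar4, Lpar6 and Plpp1 did not pass. Of 6 members tested, 1 was higher and 2 were lower, where 19.3% of all genes tested passed in either direction (10.4% higher and 8.92% lower). The median log2 difference of the 6 was -0.12, against 0.015 over all genes. The tests were those of limma with genotype and time as additive terms and Benjamini-Hochberg adjustment over all 10916 genes. The threshold was an adjusted p of 0.05.

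Plpp3 encodes a phosphatase known for degrading LPA at the cell surface and for a need in blood vessel development. Its brightest set (1429514_at) read 935 at 0, 829 at 60 and 1084 at 120 minutes in wild-type cells. In mutant cells it read 385, 326 and 280. All mutant arrays lay below all wild-type arrays, and the intensity ratio of wild-type to mutant was 2.43 at 0, 2.54 at 60 and 3.87 at 120 minutes. The share of all genes whose genotypes separate in this way was not counted, for Plpp3 or for any gene below. The means were 950 ± 128 (SD, n = 3 arrays) and 330 ± 52.7, and the log2 difference was -1.48 ± 0.11 (SE; limma, adjusted p = 1.94e-05). Its rank from the lowest difference was 13 among the 10916 genes. The other Plpp3 set (1448908_at), which is dimmer, read 236, 177 and 263 in wild-type and 71.0, 71.0 and 60.9 in mutant cells. The genotypes did not overlap there either, and the ratios were 3.32, 2.50 and 4.33. Fitted with all probe sets above the filter level, where 13.6% of 18911 sets passed, this set differed by -1.52 ± 0.12 (adjusted p = 0.000121). In a bulk extract, fewer cells with the transcript and less transcript per cell cannot be told apart.

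Plpp2, a phosphatase of the same family, read 660, 604 and 633 in wild-type and 474, 456 and 480 in mutant cells at 0, 60 and 120 minutes (1451210_at). The genotypes did not overlap, and the ratio of wild-type to mutant lay between 1.32 and 1.39. The means were 632 ± 27.9 (SD, n = 3) and 470 ± 12.4, with a log2 difference of -0.42 ± 0.053 (SE; limma, adjusted p = 0.000729). The other Plpp2 set (1420910_at) read between 8.07 and 10.4 on all arrays, below the 10.8 median of olfactory receptor sets, and showed no separation. With the mean of both sets in place of the brightest, the difference was -0.20 (adjusted p = 0.0442). Without time as the block that pairs the arrays, the adjusted p of Plpp2 was 0.0995, where 0.815% of genes passed.

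Lpar1, the mouse gene of the receptor that the labels call wild-type or mutant, was read by 3 probe sets, all above the filter level. The brightest (1417143_at) read 1335, 1290 and 1289 in wild-type and 1496, 1514 and 1438 in mutant cells. The next (1448606_at, drawn from the same transcript record) read 828, 814 and 857 against 879, 968 and 934. The third (1426110_a_at, whose suffix marks probes common to several transcripts of a gene) read 290, 286 and 265 against 309, 353 and 323. At each set every mutant array was above every wild-type array. How many of all genes separate likewise was not counted. The log2 difference of the brightest set was 0.18 ± 0.045 (SE; limma, adjusted p = 0.0207), and its absolute size was at the 74.3rd percentile of all genes. The other sets differed by 0.15 and 0.22, with adjusted p of 0.105 and 0.0719 among probe sets above the filter level, where the brightest had 0.0360. The Lpar1 call was lost without time as the block (adjusted p = 0.321), without the trend in the limma prior (0.0771), with all probe sets fitted (0.0567), without the 0 minute array of wild-type (0.0555) or mutant cells (0.0559), and without the 60 minute array of either (0.1015 and 0.103). Whether the mutant receptor came from an added gene is not stated in the labels, and sets designed on mouse Lpar1 might miss the transcript of such a gene.

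The remaining members showed no genotype difference that passed. Plpp1, the phosphatase with broad tissue expression, read 1864, 2106 and 2188 in wild-type and 1925, 2109 and 2120 in mutant cells (1422619_at). Its log2 difference was 0.00083 with a 95% interval from -0.095 to 0.097. The second Plpp1 set (1422620_s_at, whose suffix marks probes that may be shared between genes) read from 1447 to 1662, and the third (1425449_at) from 20.8 to 38.8, below the filter level. Lpar6, a receptor known for hair growth, read 131, 108 and 114 against 141, 105 and 125 at its 1 probe set (1428615_at), a log2 difference of 0.053 with a 95% interval from -0.12 to 0.22. Lpar4 differed by -0.24 ± 0.11 (limma, adjusted p = 0.146), with -0.20 at 0, 0.029 at 60 and -0.55 at 120 minutes. Leaving out the 60 minute array gave -0.38 in either case, with an adjusted p of 0.0443 for the wild-type and 0.0447 for the mutant array. Leaving out either 120 minute array gave -0.086, with an adjusted p of 0.586 (wild-type left out) or 0.578 (mutant left out).

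**Figure D2:**
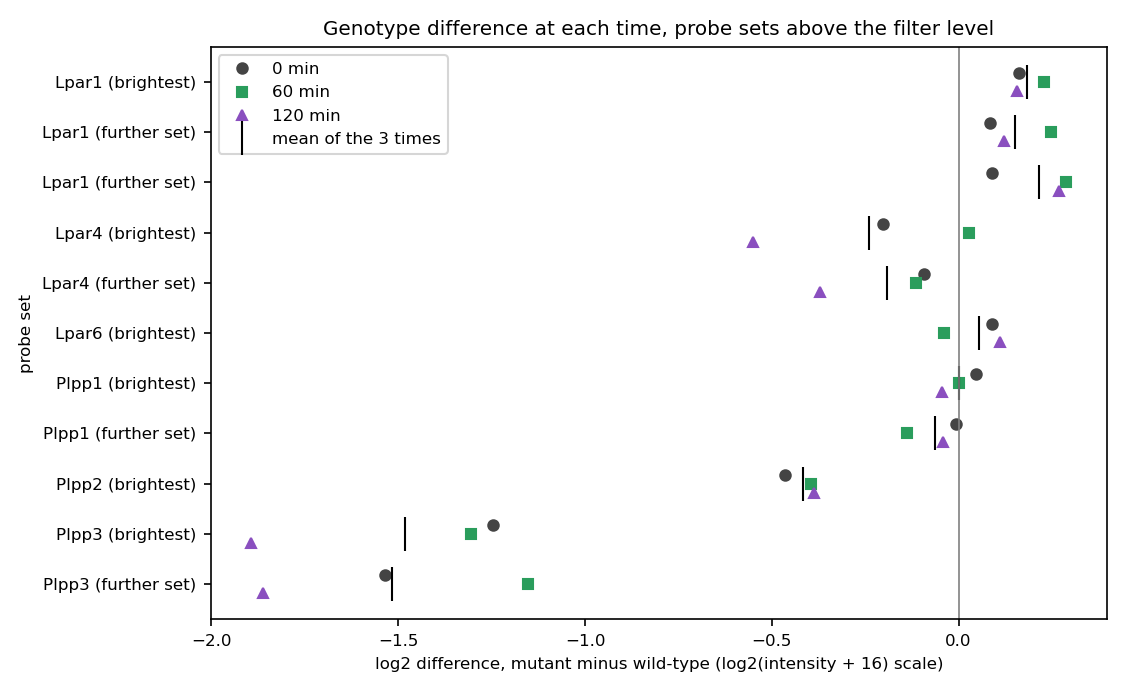
Log2 difference between the mutant and the wild-type array of the same time (x axis) for the 11 probe sets above the filter level (rows), 1 symbol per time, with a vertical tick at their mean. Both Plpp3 sets lie between -1.15 and -1.89, Plpp2 between -0.39 and -0.46, all 3 Lpar1 sets above 0, and the Plpp1 and Lpar6 sets around 0.

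Over time, Lpar4 was the member with the largest change, 1.98-fold lower at 120 than at 0 minutes over both genotypes. Plpp1 was higher by 0.18 on the log2 scale at 120 minutes, and Lpar6 fell by 0.31 at 60 minutes. Lpar1, Plpp2 and Plpp3 did not pass in any time contrast. At 60 against 0 minutes 1 of 6 members passed, lower (18% of all genes passed, 7.34% higher and 10.7% lower). At 120 against 0 minutes 1 passed higher and 1 lower (47% of all genes passed, 16.2% higher and 30.8% lower). At 120 against 60 minutes 1 passed, lower (25.2% of all genes passed, 10.2% higher and 15% lower). These contrasts share arrays with each other. RNA quality was read from the Actb control sets, by dividing the 5′ by the 3′ set. At 0 minutes the quotient was 0.579 for the wild-type and 0.505 for the mutant array, and later it lay between 0.650 and 0.699. The same quotient for Gapdh did not set the 0 minute arrays apart in both genotypes: at 0, 60 and 120 minutes it was 1.02, 1.03 and 0.991 in wild-type and 0.954, 1.03 and 1.03 in mutant cells. The part of RNA quality in the time results was not tested.

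Lpar4, a receptor known to couple to Gs among other G proteins, read 169, 124 and 89.4 in wild-type and 145, 127 and 56.0 in mutant cells at 0, 60 and 120 minutes (1434186_at). In each genotype the 120 minute array was the lowest. Its log2 change from 0 to 120 minutes was -0.99 ± 0.13 (SE, n = 2 arrays per time; limma, adjusted p = 0.000191), with -0.81 in wild-type and -1.16 in mutant cells. With an offset of 64 in place of 16, where another set is the brightest, it was -0.65 (adjusted p = 4.95e-05). From 60 to 120 minutes it was -0.70 ± 0.13 (adjusted p = 0.00319), and from 0 to 60 minutes -0.29 ± 0.13 (adjusted p = 0.158). The second set (1439665_at) read 147, 151 and 78.7 in wild-type and 137, 139 and 57.2 in mutant cells. The 60 minute arrays there stood at the level of 0 minutes (0.025 ± 0.11), and the drop lay between 60 and 120 minutes (-0.95 ± 0.11; adjusted p = 0.000317 among probe sets). The third set (1452424_at), at 37.8, 45.6 and 25.2 in wild-type and 42.1, 29.9 and 15.6 in mutant cells, had a mean below the filter level and was also lowest at 120 minutes. With genotype left out of the fit, the adjusted p from 60 to 120 minutes was 0.0707. Without either 120 minute array the change from 0 to 60 minutes had an adjusted p of 0.0483 (wild-type left out) and 0.0440 (mutant left out). Without the wild-type 60 minute array that change was -0.087 (adjusted p = 0.762), and without the mutant one -0.49 (0.0523).

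Lpar6 had its lowest array at 60 minutes in both genotypes. Its log2 change from 0 to 60 minutes was -0.31 ± 0.094 (SE, n = 2; limma, adjusted p = 0.0465), and the difference of 120 from 0 minutes was -0.16 ± 0.094 (adjusted p = 0.179). The call at 60 minutes kept its side of the threshold under 6 of 15 alternatives and was lost under 9, among them quantile normalization (-0.25, adjusted p = 0.0867), no filter on dim genes (0.0820) and the omission of the 0 minute array of wild-type (0.174) or mutant cells (0.279) or the 60 minute array of wild-type (0.0739) or mutant cells (0.278).

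Plpp1 was lowest at 0 minutes in both genotypes. Its log2 difference of 120 from 0 minutes was 0.18 ± 0.053 (SE, n = 2; limma, adjusted p = 0.0164), with 0.23 in wild-type and 0.14 in mutant cells, a size at the 46.6th percentile of all genes. At 60 minutes it was 0.15 ± 0.053 (adjusted p = 0.0734). The second set gave 0.17 ± 0.060 at 120 minutes (adjusted p = 0.0442 among probe sets above the filter level). The call was lost without the trend in the prior (0.0670), with the mean of the gene's sets (0.0677), with genotype left out (0.0809), and without the 0 minute (0.153) or 120 minute (0.119) wild-type array.

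Plpp3 went in different directions in the genotypes at the later time. Between 0 and 120 minutes its log2 level moved by 0.21 for wild-type and by -0.44 for mutant cells, and between 60 and 120 minutes by 0.38 and -0.21. At the second set these were 0.15 and -0.18, and 0.53 and -0.18. With 1 array per genotype and time this difference was not tested. In the additive fit, which averages over genotypes, the 120 minute difference from 0 was -0.11 ± 0.13 (limma, adjusted p = 0.509). It was -0.42 (adjusted p = 0.00192) without the wild-type 120 minute array and 0.19 (0.0897) without the mutant one. From 60 to 120 minutes it was 0.086 ± 0.13 (adjusted p = 0.712), and 0.39 (0.00417) without the mutant 120 minute array. From 0 to 60 minutes it was -0.20 ± 0.13 (adjusted p = 0.322), and leaving out the 120 minute array gave an adjusted p of 0.0494 (wild-type) or 0.0402 (mutant). Lpar1 differed by -0.053 and Plpp2 by -0.021 between 120 and 0 minutes, with 95% intervals from -0.18 to 0.071 and from -0.17 to 0.12.

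**Figure D3:**
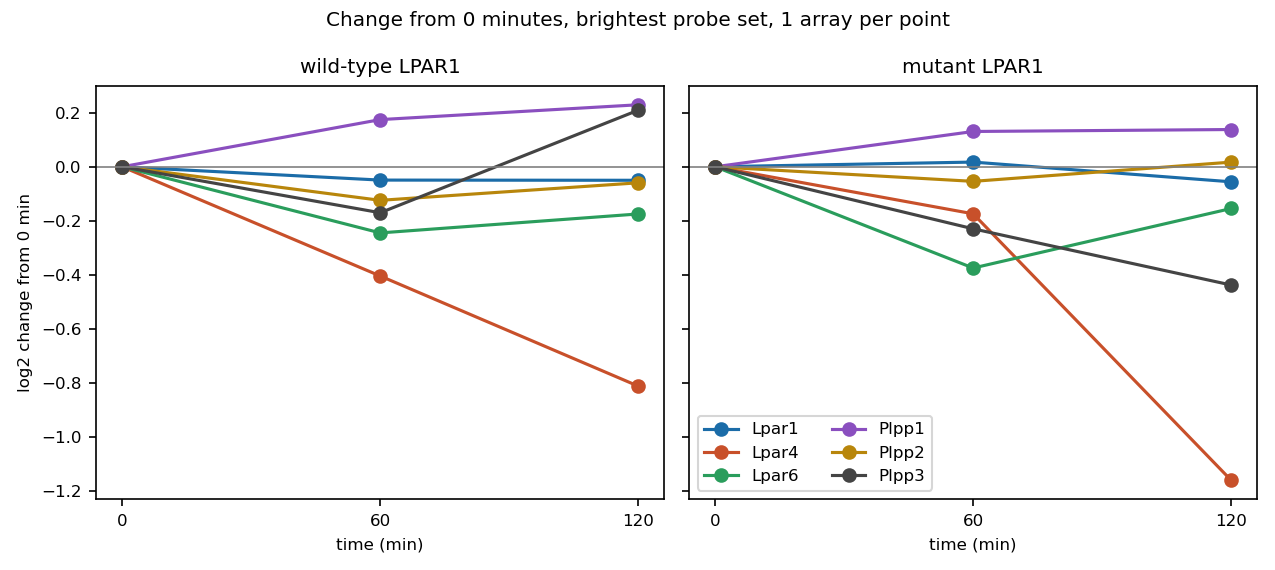
Log2 change from 0 minutes (y axis) against time in minutes for the brightest probe set of the 6 members tested, wild-type cells on the left and mutant cells on the right, 1 array per point. Lpar4 ends lowest in both panels (-0.81 and -1.16), Plpp1 ends above 0 in both, and Plpp3 ends at 0.21 on the left and -0.44 on the right.

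Lpar2 and Lpar3 were dim on every array. The brighter Lpar2 set (1442291_at) read 27.7, 17.4 and 12.4 in wild-type and 24.9, 14.4 and 9.41 in mutant cells at 0, 60 and 120 minutes, and the other (1420576_at) 24.9, 18.6 and 9.93 against 16.2, 4.07 and 6.97. These values lay within the range of olfactory receptor sets, whose 90th percentile was 29.7. In a fit of all 18193 genes without the filter, Lpar2 differed by -0.65 ± 0.12 between 120 and 0 minutes (limma, adjusted p = 0.00258, with 27.1% of genes called) and by -0.13 between genotypes (adjusted p = 0.477). Lpar3, with 1 probe set (1418723_at), read between 5.03 and 11.4. The genotypes overlapped and the 60 minute array was the highest in each. Its adjusted p in that fit lay between 0.450 and 0.977 over the contrasts.

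**Figure D4:**
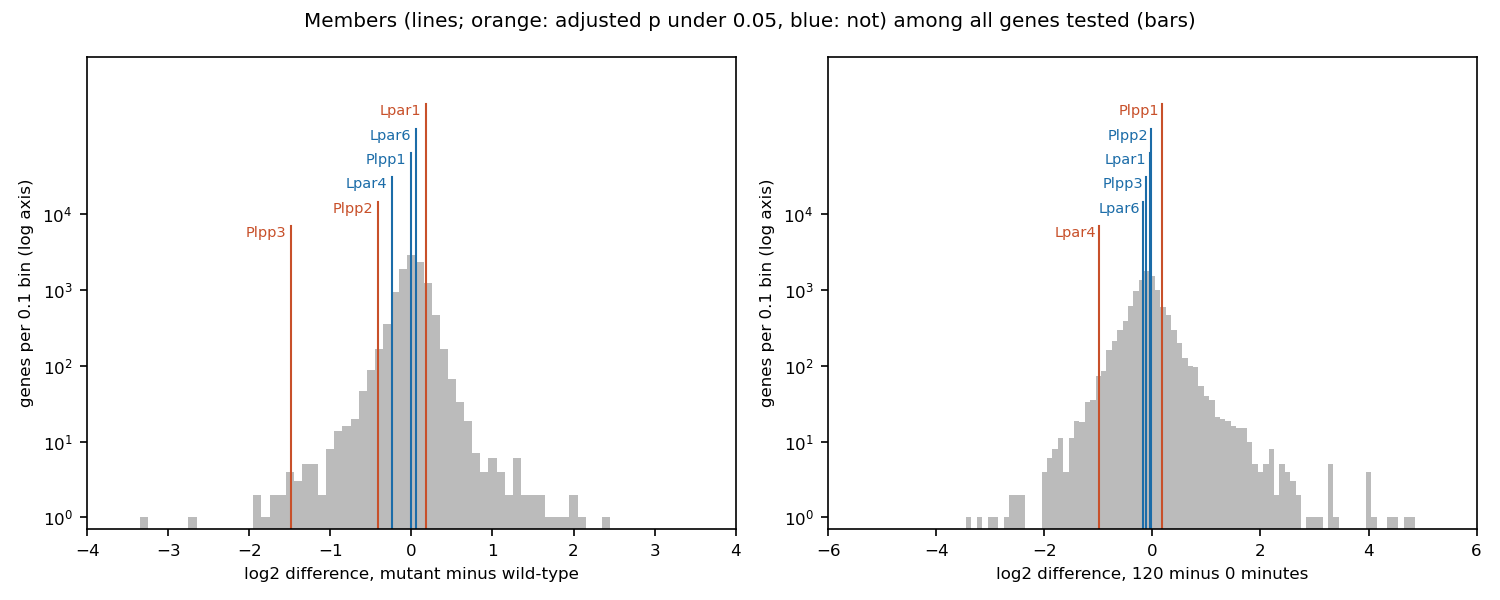
Number of genes (log axis) in bins of 0.1 of the log2 difference, grey, over the 10916 genes tested, with a line for each of the 6 members, orange where it passed. On the left, mutant minus wild-type, Plpp3 lies in the lower tail at -1.48. On the right, 120 minus 0 minutes, Lpar4 lies lower than the other members at -0.99.

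The wider pathway was read through lists of genes. Of 38 further genes, listed as enzymes of LPA metabolism or as members of the same gene families, 28 were tested. In mutant cells 3 of them were higher and 4 were lower, where 19.3% of all genes passed (10.4% higher and 8.92% lower), and their median difference was 0.024 against 0.015 over all genes. Pla1a, a phospholipase known to release lysophospholipids, read from 63.7 to 65.2 in wild-type and from 23.1 to 27.4 in mutant cells. It is counted among the 4, but it passed the filter through the wild-type arrays, and its mutant values lay below the 29.7 that is the 90th percentile of olfactory receptor sets, so no fold is given. Agpat3, an acyltransferase that uses LPA to make phosphatidic acid, read from 722 to 831 against 1066 to 1106 with no overlap (0.50 ± 0.053; limma, adjusted p = 0.000217). Gdpd1, a lysophospholipase D that can form LPA inside cells, differed by 0.49 ± 0.064, and Gpat3, which makes LPA from glycerol 3-phosphate, by -0.39 ± 0.078.

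Over time the same list had 2 members higher and 3 lower at 60, 4 higher and 7 lower at 120 against 0, and 3 higher and 4 lower at 120 against 60 minutes. Of all genes 18%, 47% and 25.2% passed in these contrasts. The medians were -0.092, -0.12 and 0.018, against -0.071, -0.091 and -0.019 over all genes. Lpin1, a phosphatidic acid phosphatase, read 563, 411 and 137 in wild-type and 624, 447 and 160 in mutant cells and fell by 1.89 ± 0.071 on the log2 scale at 120 minutes (limma, adjusted p = 4.66e-08). Gpat3 read 162, 282 and 391 in wild-type and 140, 204 and 265 in mutant cells and rose by 1.02 ± 0.095. Gdpd1 and Lpcat2, an acyltransferase of lysophospholipids, fell by 0.75 and by 0.67 over the same 120 minutes. Agpat4 was higher by 0.39 at 60 minutes, and Pld1, a phospholipase D, lower at 120 than at 60 minutes (-0.55).

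Genes of sphingosine 1-phosphate, a lipid that the same phosphatases can act on, had 7 of 11 members tested. In mutant cells the receptor gene S1pr2 (-0.35 ± 0.057) and the kinase gene Sphk1 (-0.30 ± 0.066) were lower and the lyase gene Sgpl1 (0.21 ± 0.049) higher, with a list median of -0.056. These are 3 of 7, where 19.3% of all genes passed. Over time 2 were higher and 1 lower at 60 and again at 120 against 0 minutes, and 2 were higher at 120 against 60 minutes, with medians of -0.049, 0.019 and 0.10. The shares of all genes that passed were 18%, 47% and 25.2%. S1pr3, a receptor of the EDG family, read 222, 649 and 1102 in wild-type and 251, 676 and 1102 in mutant cells, a log2 rise of 2.15 ± 0.069 at 120 minutes (limma, adjusted p = 2.05e-08). Sphk1, which makes sphingosine 1-phosphate, read 105, 204 and 367 against 81.1, 161 and 299, a rise of 1.68 ± 0.081. S1pr2 fell by 0.28 between 0 and 120 minutes.

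Of 14 genes of the G proteins, exchange factors and kinases that LPA receptors act through, 12 were tested, and limma called 0 between genotypes, with 3 at an unadjusted p under 0.05 and a median of 0.029, where 19.3% of all genes passed. The largest difference was that of the guanine nucleotide exchange factor gene Arhgef1 (-0.15; adjusted p = 0.170). Over time 1 was higher and 1 lower at 60, 1 higher and 2 lower at 120 against 0, and 1 higher and 1 lower at 120 against 60 minutes, with medians of -0.028, -0.023 and 0.025, where 18%, 47% and 25.2% of all genes passed. Arhgef2, an exchange factor bound to microtubules, fell by 0.44 ± 0.060 at 120 minutes, Arhgef1 fell by 0.26 and the protein kinase gene Rock1 rose by 0.32 ± 0.062. Of 4 other receptors reported to bind LPA, 2 had a probe set (P2ry10 and Gpr35), and neither was above the filter level.

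The genes whose 6 log2 levels ran closest to a member, each centred on its own mean, were sought for the members that spanned at least 1 on the log2 scale, Plpp3 (1.89) and Lpar4 (1.36). Closest to Plpp3 were Dach2, Armh4 and Akr1c13, at a root mean square difference of 0.14, 0.17 and 0.17. Dach2 read from 137 to 150 in wild-type and from 35.4 to 38.8 in mutant cells. Its mutant values lay below the filter level of 39.2, so it passed the filter through the wild-type arrays. Armh4 read from 163 to 174 in wild-type and from 52.1 to 69.5 in mutant cells. Closest to Lpar4 were Knstrn, Otulinl and Mbp, at 0.094, 0.099 and 0.10. Knstrn read 598, 473 and 317 in wild-type and 559, 440 and 258 in mutant cells at 0, 60 and 120 minutes. The other genes were dim at 120 minutes. Otulinl read 33.3 in wild-type and 15.8 in mutant cells there, and Mbp 43.9 and 21.5.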

How the data were processed

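The authors deposited 1 linear intensity per probe set and array. The submitters' processing notes name PLIER, which summarises the probes of a set, and Affymetrix Power Tools 1.14.3.1. The background correction and scaling between arrays are not given in the sources used here. The array holds 45101 probe sets. Controls made up 64 of them, and the annotation gave 1 gene for 34945, several genes for 932 and no gene for 9160. Symbols were updated by gene identifier to RefSeq names (GRCm38.p6), which 34741 sets matched.

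Log2(intensity + 16) was fitted with limma 3.58.1 in R 4.3.3 on 10916 genes, 1 probe set each. The additive terms were genotype and time, with a trended prior, 2 residual degrees of freedom and a prior of 7.775. Tests were two-sided. Time is the block that pairs the arrays, taken from the labels. Deviations from the genotype mean correlated across genes, which are not independent replicates, at r = 0.911, 0.756 and 0.871 for the arrays of 0, 60 and 120 minutes, which includes the shared time response. The procedure was run on simulated data with independent noise between arrays. These data held no difference between genotypes in the time course, so the run does not show how such differences affect the calls. The members and lists were chosen with earlier results of these data known, and all members and their probe sets are named. From each list, up to 4 genes per contrast were eligible to be named, by size of difference, those that passed first. Alternatives were other offsets, filters, scaling, priors, probe-set rules, model terms and the omission of each array. Promoter sequences and gene starts are from RefSeq, GRCm38.p6.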

Additional observations from a re-analysis of the deposited data

Results flagged for a closer look

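In 4 cases a member's time difference had opposite signs in the genotypes at every one of its probe sets above the filter level. With 1 array per genotype and time none of these differences was tested. The share of all genes with such opposite signs was not counted. For Plpp3 the log2 difference of 120 from 0 minutes in mutant cells minus that in wild-type cells was -0.65, and for 120 from 60 minutes it was -0.59. Both Plpp3 sets went up in wild-type and down in mutant cells. For Lpar1 the value for 60 from 0 minutes was 0.067 (-0.049 for the wild-type arrays, 0.017 for the mutant ones), with the same signs at its 3 sets. For Plpp2 the value for 120 from 0 minutes was 0.077 (-0.059 and 0.017), at its 1 set above the filter level. At the brightest set these changes of Lpar1 and Plpp2 were smaller than the SE of the same contrast in the additive fit (0.055 and 0.065).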

How the results depend on the processing

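Plpp3 stayed lower in mutant cells and past the threshold under all 16 alternatives (log2 -1.60 to -1.28, adjusted p up to 0.0116), and Plpp2 under 15 of 16 (-0.43 to -0.20, the latter with the mean of its sets; adjusted p up to 0.0442). Lpar4 stayed lower at 120 than at 0 minutes under all 15 in which it was tested (-1.22 to -0.65, adjusted p up to 0.0111). The block, time as the pairing of arrays, mattered for genotype: without it 1 member passed instead of 3, and 89 genes instead of 2112. Of the 3 calls at genotype, Lpar1 was lost under 7 of 16 alternatives. At 60 against 0 minutes limma called 0 members instead of 1 under several alternatives, where 18% of all genes passed in the main fit. These were no filter (3 at an unadjusted p under 0.05, and 9.4% of all genes passed), the 60th percentile filter (1, 21.4%) and quantile normalization (2, 20.8%). They were also all probe sets fitted (3, 7.84% of sets), only those above the filter level, chosen after seeing the data (2, 15.4%), and genotype left out (2, 5.36%). At 120 against 0 minutes 1 passed instead of 2 with the 60th percentile filter and without the trend (54.3% and 42.7% of all genes passed). The same held with the mean of all sets (41.6%) and with genotype left out (25.4%), against 47% in the main fit. At 120 against 60 minutes 0 passed instead of 1 with the 60th percentile filter (0 at an unadjusted p under 0.05) and with genotype left out (1). Of all genes 30.1% and 9.22% passed in these fits, against 25.2% in the main fit. The 60th percentile filter removed Lpar4 and Lpar6 from the test. Leaving out each array in turn gave 2 to 3 members for genotype, where 12.6% to 19.8% of all genes passed. These were not always the members of the main fit: without either 60 minute array Lpar4 passed, lower, and Lpar1 did not pass. Such a fit leaves 1 array at the omitted time, so its member counts for the time contrasts are not given. Omitting either array of a time gives the same genotype estimate, so these omissions are not separate checks.

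Signs turned for small values that had not passed: Lpar4 at 60 minutes with offset 64 (0.020), where another of its sets was the brightest, Plpp2 at 120 against 0 minutes with quantile normalization (0.0039) and Lpar1 at 60 minutes with the mean of its sets (0.040). Over the omissions of 1 array, Plpp1 for genotype ranged from -0.022 to 0.024, Plpp1 at 120 against 60 minutes from -0.0038 to 0.066, Plpp2 at 120 against 0 from -0.058 to 0.016, Lpar1 at 60 against 0 from -0.051 to 0.019, Plpp3 at 120 against 0 from -0.42 to 0.19 and Plpp3 at 120 against 60 from -0.22 to 0.39. The Lpar1 mean takes in its other sets, which changed by 0.081 and 0.056 at 60 minutes. Apart from this and the set used at offset 64, the cause of the turns was not tested. Counts over all genes moved by over 1.5 times for genotype without the trend (1397) and without 1 array (1373 to 2163), and with genotype left out at 60 (585 of a main 1969), 120 against 0 (2772 of 5130) and 120 against 60 minutes (1007 of 2746). With probe sets fitted at 120 against 0 minutes, the counts are of sets and not of genes. They were 7706 of 34945 sets (22.1%) and 7824 of 18911 sets above the filter level (41.4%). In the main fit 47% of genes passed. Signal over background limits Lpar2, Lpar3 and the dim sets of Lpar4, Plpp1 and Plpp2.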
